A study of Mus musculus with 12 samples.

Results

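The genes described here are Ciita, the transactivator of major histocompatibility complex (MHC) class II transcription, and 9 genes of the mouse class II pathway, namely Cd74, H2-Aa, H2-Ab1, H2-Eb1, H2-DMa, H2-DMb1, H2-DMb2, H2-Oa and H2-Ob. They were chosen by name, and all 10 were found among the 41444 genes of the deposited expression table. RNA-seq was performed on pre-B cells from the bone marrow of Ctnnb1 fl/fl mice, a strain in which Cre can delete the β-catenin gene, that were expanded with IL-7 and then transformed with a BCR-ABL1 retrovirus as a model of B-cell acute lymphoblastic leukemia (B-ALL). The cells of both groups carried the ERT2 vector, a tamoxifen-responsive receptor domain without Cre, so that β-catenin was left intact. Both groups received the tamoxifen metabolite 4-OHT for 2 days at 1 µM, the control group (3 samples) with no further treatment and the treated group (3 samples) with the GSK3 inhibitor LY2090314 for 1 day at 40 nM, as the labels give it. A different treatment time is stated in the study's figure legend. The comparison asks how class II genes behaved when GSK3, the kinase that marks β-catenin for degradation, was inhibited in cells with intact β-catenin. Cells with Cre are not analysed here, because the names of the remaining 6 columns did not match 1 group each.

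MHC class II molecules present peptides from endocytosed proteins to CD4+ T cells and consist of an α chain (H2-Aa) paired with a β chain (H2-Ab1), or of the corresponding E chains (H2-Eb1). The invariant chain Cd74 fills the groove of newly made molecules, H2-DM (H2-DMa with H2-DMb1 or H2-DMb2) exchanges its remnant for peptide, and H2-DO (H2-Oa with H2-Ob) holds H2-DM back, chiefly in B cells. Ciita binds no DNA itself. It is recruited by RFX, CREB and NF-Y proteins that sit on a conserved set of promoter elements, among them the X box and the Y box, and H2-Ob is known to depend on it less strictly than the classical chains. Mature B cells express Ciita and class II strongly, mouse pro-B and pre-B cells express little of either, and plasma cells switch Ciita off again.

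The promoter elements are shown first. Only some of the listed genes were found to hold the letters of both elements. RefSeq promoters (GRCm38.p6, from 250 bases before to 50 bases after the annotated start of transcription) were found for 7 of the 10 genes. There was no entry for Ciita, Cd74 or H2-Ab1, and there were 2 entries for H2-DMa. The letters searched were ATTGG for the Y box, which is the reverse complement of the NF-Y element CCAAT, and AACNNATG for the X box. Listed genes were searched on the strand of the gene for the positions given, and all promoters together on either strand. The X letters and the allowed spacing of 10 to 30 bases between X and Y were chosen after class II promoters had been read, so their presence in these genes describes the choice and tests nothing. The windows below, printed 5′ to 3′ on the strand of the gene with X and Y letters in capitals, were chosen to show the Y letters with the 60 bases before them, where the X letters lie if present, and the related β chain gene H2-Eb2 is added for comparison. The window of H2-DMb1 is not printed because most of it lies in an annotated exon.
H2-Oa (chr17:34092276-34092350, plus strand): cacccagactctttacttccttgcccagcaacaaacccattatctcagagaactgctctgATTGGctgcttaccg
H2-DMb2 (chr17:34145099-34145173, plus strand): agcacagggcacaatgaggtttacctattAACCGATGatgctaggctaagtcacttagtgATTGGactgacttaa
H2-Ob (chr17:34238788-34238862, plus strand): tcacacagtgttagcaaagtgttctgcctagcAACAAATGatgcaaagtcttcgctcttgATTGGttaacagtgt
H2-Aa (chr17:34287857-34287931, minus strand): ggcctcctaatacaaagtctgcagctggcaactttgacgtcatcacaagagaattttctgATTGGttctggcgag
H2-Eb1 (chr17:34305748-34305822, plus strand): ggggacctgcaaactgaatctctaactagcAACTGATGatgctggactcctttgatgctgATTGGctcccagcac
H2-Eb2 (chr17:34325515-34325589, plus strand): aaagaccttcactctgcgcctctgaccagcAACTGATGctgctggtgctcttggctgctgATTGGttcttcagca

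Y letters were found in all 7 genes with a promoter entry, for H2-DMa in 1 of its 2 entries only, where they began at position -198 from the start. X letters followed by Y letters were found in 4 of the 7 genes, which were H2-DMb1, H2-DMb2, H2-Ob and H2-Eb1, and also in H2-Eb2. The bases between them numbered 23 in H2-DMb1 and H2-DMb2, 22 in H2-Eb1 and H2-Eb2 and 20 in H2-Ob. Among 32851 RefSeq promoters of the same length, 8.86% held the X letters, 37.4% held the Y letters and 0.174% (57 promoters) held both in this order and spacing. These percentages count matches on either strand, so they are not fully comparable with the counts for the listed genes. H2-Oa and H2-Aa had only the Y letters, beginning at positions -43 and -48. A match of letters does not show that a protein was bound, and the lack of a match says only that these letters were not in the window.

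**Figure D1:**
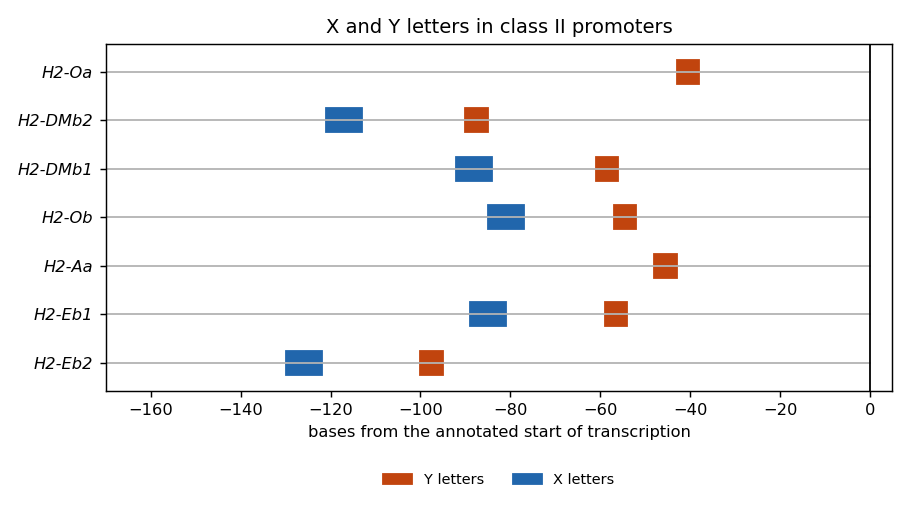
Positions of the X letters (blue) and Y letters (orange) in bases from the annotated start of transcription, which is at 0, for 6 class II genes and H2-Eb2; H2-DMa, whose Y letters lie at -198 in 1 entry, is left out. In the 5 genes with both, the X letters lie on the far side of the Y letters, and H2-Oa and H2-Aa show Y letters alone.

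Expression is given as regularized log2 (rlog) values, in which the authors scaled read counts for library size and drew genes with few reads towards their mean over samples, so differences of weakly expressed genes are understated. A difference is the mean of the LY2090314 samples minus the mean of the control samples. Genes with a mean of at least 3 over the 6 samples were tested with limma, the threshold was a Benjamini-Hochberg adjusted p of 0.05, and exact permutation of 3 against 3 samples cannot give a two-sided p below 0.10. Read counts were not used here. Library depth is therefore unknown and precision rests on the spread between samples. The study's figure legend describes the samples as biological replicates from mice. The labels name no separate cultures or animals. The column names of treated samples 1 and 2 begin with the same number and differ by the letters A and B. What that number stands for is not stated, so part of the spread behind the p-values may be technical. The SD of the difference between a pair of samples across genes was 0.185 to 0.239 among controls, 0.186 to 0.253 among treated samples, with 0.186 for samples 1 and 2, and 0.581 to 0.622 between groups. Of all 11536 genes tested, 50.1% passed the threshold, 24.8% higher and 25.3% lower with LY2090314, and 58.6% had groups that did not overlap.

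The differences of the class II genes were small. Of the 10 genes, 6 reached the limit for testing, and 1 of these, Cd74, was higher with LY2090314. That is 16.7% past the threshold, against 50.1% of all genes tested. None was lower by limma, none of the 5 genes that missed the threshold had an unadjusted p under 0.05, and Cd74 was the only tested gene of the list whose groups did not overlap. The median difference of the 6 tested genes was -0.02 on the log2 scale, against 0.01 for all genes tested, and the median size without regard to sign was 0.10 against 0.24. Of the tested genes, H2-Ab1, H2-DMb1 and H2-DMb2 were weakly expressed, with means over the 6 samples of 3.30, 3.50 and 4.37. Shrinkage understates differences of such genes, so the median sizes are not fully comparable. The 6 tested genes passed a limit on level, so their count does not describe the 4 genes below it. With no limit on the mean, 9 of the 10 could be fitted and 1 passed, again Cd74, against 27.2% of 19658 genes. In bulk RNA, fewer cells of a type and less RNA per cell cannot be told apart.

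Ciita (ENSMUSG00000022504, chromosome 16 of GRCm38, 10480059 to 10528418, plus strand) was low in both groups. Its rlog values were 0.80, 0.83 and 0.56 in controls 1 to 3 and 0.56, 0.56 and 0.56 with LY2090314. Controls 1 and 2 stood above the rest, while control 3 was the lowest of the 6, just below the treated samples, so the groups overlapped. In 4 of the 6 samples the value was within 0.01 of the lowest. The means were 0.73 ± 0.149 (SD, n = 3) and 0.56 ± 0.000357 (SD, n = 3). The difference of -0.17 was outside the fit, and the two-sided p of exact permutation was 0.4. Ciita shares exon sequence positions with Dexi on the other strand. The strand setting of the authors' counting is not stated, so reads of either gene could have been counted for the other.

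The invariant chain gene Cd74 (ENSMUSG00000024610, chromosome 18) was the exception among the tested genes. It measured 7.44, 7.32 and 7.50 in controls and 7.75, 7.62 and 7.96 with LY2090314. Every treated sample lay above every control, and treated sample 2 and control 3 were the closest pair. The means were 7.42 ± 0.0910 (SD, n = 3) and 7.78 ± 0.168 (SD, n = 3). The difference was 0.36 (standard error 0.11, 95% interval 0.11 to 0.60, limma adjusted p = 0.024), or 1.28-fold, and the exact permutation test gave the smallest p it can, 0.1. Of all genes tested, 66.3% had a difference of smaller size. The call was lost without control 1 (0.37, limma adjusted p = 0.0551), without control 2 (0.31, adjusted p = 0.0840) or without treated sample 1 (0.37, adjusted p = 0.0550). The microRNA gene Mir5107, which overlaps Cd74 exons on the same strand, was listed at 0.

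The classical chains were low. H2-Ab1 (ENSMUSG00000073421, chromosome 17, 34257689 to 34269419, plus strand), the β chain of I-A, measured 3.27, 3.48 and 3.16 in controls and 3.18, 3.37 and 3.32 with LY2090314. The groups overlapped almost fully. The means were 3.30 ± 0.161 and 3.29 ± 0.102 (SD, n = 3 each), and the difference was -0.01 (95% interval -0.25 to 0.23, limma adjusted p = 0.93). Its partner H2-Aa (ENSMUSG00000036594, chromosome 17, 34282744 to 34287823, minus strand), the α chain of I-A, lay near 0, at -0.06, -0.06 and 0.01 in controls and -0.06, -0.06 and -0.02 with LY2090314. H2-Aa was within 0.01 of its lowest value in 4 of the 6 samples and was not tested. The β chain gene of I-E, H2-Eb1 (ENSMUSG00000060586, chromosome 17, 34305867 to 34316674, plus strand), was listed at 0 in all 6 samples. It was 1 of 21786 genes at exactly 0 in all of them, while values of other genes went down to -2.28. Its 0 is therefore not comparable with the levels of the other genes. No change in H2-Aa or H2-Eb1 was detectable in these values.

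The H2-DM genes, which encode the peptide exchange factor, were low as well. H2-DMa (ENSMUSG00000037649, chromosome 17, 34119541 to 34139101, plus strand), its α chain, measured 2.05, 1.87 and 1.99 in controls and 1.87, 1.87 and 1.94 with LY2090314, below the limit for testing. The groups overlapped, and the difference of means was -0.08. In 3 of the 6 samples, control 2 and treated samples 1 and 2, the value was within 0.01 of the lowest. H2-DMb1 (ENSMUSG00000079547, chromosome 17, 34153072 to 34160230, plus strand), a β chain, measured 3.50, 3.60 and 3.64 in controls and 3.51, 3.40 and 3.33 with LY2090314. Treated sample 1 lay just above control 1 and the other treated samples lay below all controls. The difference was -0.17 (standard error 0.082, 95% interval -0.36 to 0.02, limma adjusted p = 0.13). H2-DMb2 (ENSMUSG00000037548, chromosome 17, 34143307 to 34151555, plus strand), the other β chain, measured 4.48, 4.39 and 4.57 in controls and 4.49, 4.14 and 4.15 with LY2090314. Here too treated sample 1 lay within the controls and treated samples 2 and 3 below them. The difference of -0.22 (standard error 0.12, 95% interval -0.49 to 0.05, limma adjusted p = 0.16) passed the threshold without treated sample 1 (-0.33, adjusted p = 0.0316). With quantile normalization both β chain genes passed it, H2-DMb1 at -0.26 (adjusted p = 0.0269) and H2-DMb2 at -0.33 (adjusted p = 0.0380). The values of both are uncertain as single genes, because 31.4% of the 31-base words of H2-DMb1 transcripts also occur in H2-DMb2 and 29.7% of those of H2-DMb2 occur in H2-DMb1. H2-DMa overlaps exons of Brd2 on the other strand, which lay far above it at 11.92 in controls and 12.24 with LY2090314.

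The H2-DO genes, which encode the inhibitor of H2-DM, were the highest of the H2 genes on the list. H2-Ob (ENSMUSG00000041538, chromosome 17, 34238903 to 34254414, plus strand), the β chain, measured 8.94, 9.01 and 8.95 in controls and 8.93, 8.89 and 9.08 with LY2090314. The treated samples lay on both sides of the controls. Both means were 8.97, with SDs of 0.0389 and 0.102 (n = 3 each), and the 95% interval of the difference ran from -0.16 to 0.16 (limma adjusted p = 0.99). H2-Oa (ENSMUSG00000024334, chromosome 17, 34092340 to 34095234, plus strand), the α chain, measured 6.16, 6.12 and 6.25 in controls and 5.83, 6.10 and 6.49 with LY2090314. The treated samples again spanned the controls, with an SD of 0.335 against 0.0689. The difference was -0.04 (95% interval -0.41 to 0.34, limma adjusted p = 0.87). H2-Oa overlaps exons of the antisense gene BC051537, which measured -0.63 in controls and -0.64 with LY2090314. The intervals bound the change of H2-Ob more tightly than that of H2-Oa.

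**Figure D2:**
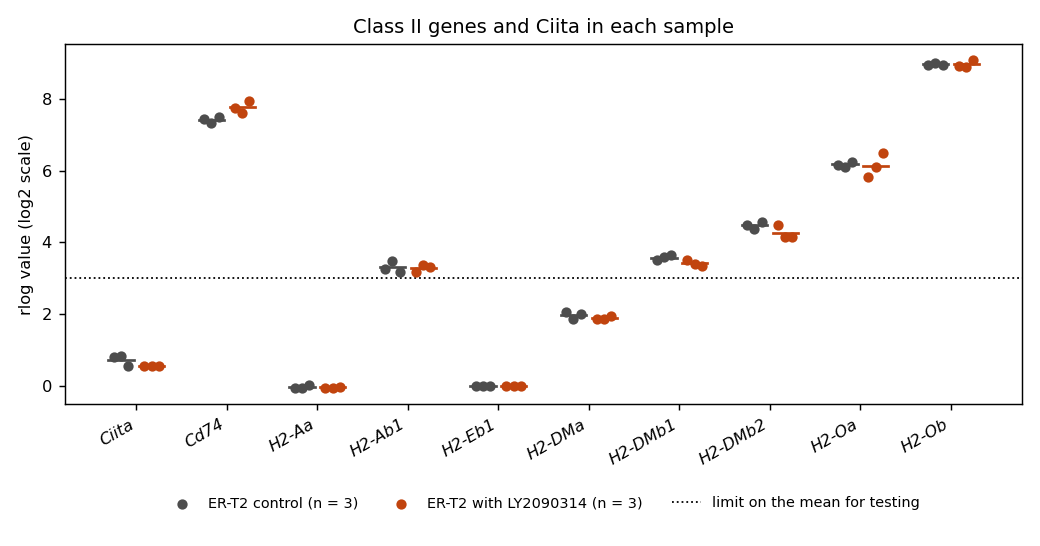
The rlog value (log2 scale) of each of the 10 genes in every sample, with control and LY2090314 samples as separate points the mean of each group as a line and the limit of 3 for testing as a dotted line. H2-Ob at 8.97 and Cd74 at 7.42 to 7.78 are plotted far above H2-Aa and Ciita, which lie between -0.06 and 0.83. H2-Eb1 is listed at 0 in every sample, and values are not scaled by transcript length.

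Levels can be compared between genes only per length of transcript. On the scale of the mean rlog value minus the log2 of the longest transcript in kilobases, H2-Ob stood at 7.55 and Cd74 at 7.10, followed by H2-Oa at 5.74, H2-DMb2 at 3.80, H2-Ab1 at 3.02 and H2-DMb1 at 3.01. The last 2 differ by less than the spread between samples. Among the genes tested, the level per kilobase of H2-Ob was at percentile 55.7 and that of Cd74 at 47.9, while H2-Ab1 was at 8.67 and H2-DMb1 at 8.61. B2m, the light chain of class I molecules, stood at percentile 99.3.

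**Figure D3:**
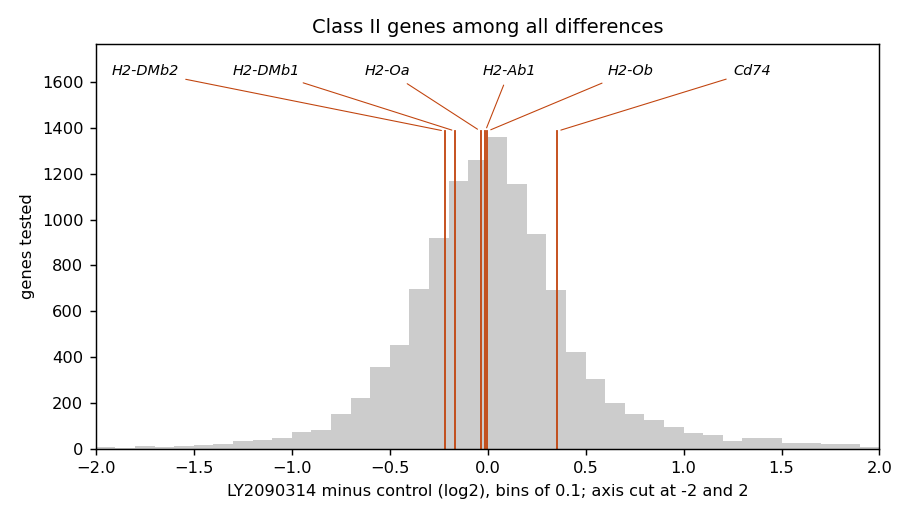
Number of genes tested (vertical axis) by their log2 difference, LY2090314 minus control (horizontal axis, shown from -2 to 2), with the tested class II genes marked. The 6 marked genes lie between -0.22 and 0.36. Of all genes tested, 66.3% had a difference of smaller size than Cd74, the largest of the 6.

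Of the other class II genes, no entry had the symbol H2-Ea, and the entry named H2-Ea-ps, annotated as a polymorphic pseudogene, was listed at 0. H2-Eb2, a β chain gene next to H2-Eb1, measured 5.33, 5.25 and 5.16 in controls and 5.76, 5.83 and 5.64 with LY2090314. All treated samples lay above all controls. The difference was 0.50 (standard error 0.093, 95% interval 0.28 to 0.71, limma adjusted p = 0.0030). H2-Eb2 transcripts share 0.418% of their 31-base words with H2-Eb1. Both genes hold the X and Y letters printed above with the same 22 bases between them. The 0 listed for H2-Eb1 is not comparable with the level of H2-Eb2. A link between these letters and expression was not tested.

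The proteins that bind class II promoters and the cofactors of Ciita moved in both directions. All 12 were tested, of which 3 were higher, 3 lower and 6 not past the threshold, that is 50% against 50.1% of all genes. Within RFX, the X box complex, Rfxank rose by 0.62 (limma adjusted p = 0.00047) and Rfx5 fell by 0.37 (adjusted p = 0.0093), while Rfxap differed by 0.17 (adjusted p = 0.094). Rfxank measured 7.15, 7.18 and 7.10 in controls and 7.82, 7.80 and 7.67 with LY2090314, and Rfx5 measured 8.88, 8.96 and 8.86 against 8.48, 8.70 and 8.40. Both were thus separated between groups, in opposite directions. Of NF-Y, the Y box complex, the subunit gene Nfyc fell by 0.25 (adjusted p = 0.011), and Nfya and Nfyb each differed by 0.02 without passing. Of the chromatin cofactors, the methyltransferase gene Carm1 fell by 0.48 (adjusted p = 7.5e-05), and the remodeler gene Smarca4 and the acetyltransferase gene Ep300 rose by 0.31 (adjusted p = 0.0071) and 0.22 (adjusted p = 0.017).

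Several known regulators of Ciita differed by more than any class II gene. Of 9, 8 were tested, 3 were higher, 3 lower and 2 not past the threshold, that is 75% past it against 50.1% of all genes tested. The repressor gene Prdm1, which encodes BLIMP1 and is known to silence Ciita in plasma cells, had a mean of 6.07 in controls and 10.53 with LY2090314, a difference of 4.46 (limma adjusted p = 1.6e-08). Irf1 and Irf4, interferon regulatory factor genes linked to Ciita promoters, rose from 9.15 to 10.58 and from 12.75 to 14.16, by 1.43 and 1.41 (adjusted p = 7.2e-07 and 7.6e-07). On the other side, the B-cell factor gene Pax5 fell from 14.05 to 12.51, by 1.54 (adjusted p = 9.8e-06), Irf8 fell by 0.49 (adjusted p = 9.3e-05) and the E protein gene Tcf3 by 0.34 (adjusted p = 0.00069). Spi1, which encodes PU.1, differed by 0.06 (adjusted p = 0.63). Ciita itself, as given above, lay within 0.01 of its lowest value in control 3 and in all treated samples.

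Genes for the processing and turnover of class II molecules moved in both directions. Of 12, 10 were tested, 5 were higher, 2 lower and 3 not past the threshold, that is 70% past it against 50.1% of all genes tested, with a median difference of 0.25. Ifi30, the lysosomal thiol reductase GILT that opens disulfide bonds of antigens, measured 7.66, 7.61 and 7.67 in controls and 5.72, 5.94 and 5.80 with LY2090314. It fell by 1.83 (limma adjusted p = 2.4e-06). March8, a membrane ubiquitin ligase that can send class II molecules to lysosomes, rose from 7.58 to 8.79, by 1.21 (adjusted p = 1.1e-05). Cd44, a partner of Cd74 at the cell surface, rose by 0.85 (adjusted p = 5.9e-05), and Mif, the ligand of Cd74, fell by 0.76 (adjusted p = 0.00037).

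Class I presentation genes, some of which lie among the class II genes, are given beside them. Of 13 tested, 5 were higher, 3 lower and 5 not past the threshold, that is 61.5% past it against 50.1% of all genes tested. B2m rose from 13.37 to 14.09, by 0.72 (limma adjusted p = 0.00021), and the peptide loading gene Tapbp by 0.43 (adjusted p = 0.0014). The loading chaperone gene Calr fell by 0.51 (adjusted p = 0.00053) and the immunoproteasome subunit gene Psmb8 by 0.50 (adjusted p = 0.0014). Nlrc5, the class I counterpart of Ciita, named here after its values were seen, measured 6.81, 7.08 and 5.60 with LY2090314 against 5.99, 5.49 and 5.64 in controls. Treated sample 3 lay among the controls, and the difference of 0.80 did not pass (standard error 0.35, adjusted p = 0.095). Of the 9 other genes of the table that lie between the outermost class II genes (chromosome 17, 34092340 to 34316674), 5 were tested, of which Psmb8 was lower, Brd2 was higher by 0.32 (adjusted p = 0.0499, groups overlapping), and 3 did not pass. The 2 that passed were 40% of those tested, against 50.1% of all genes tested. With no limit on the mean, Brd2 did not pass (adjusted p = 0.14), and the count of 2 fell to 1 under most other settings.

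**Figure D4:**
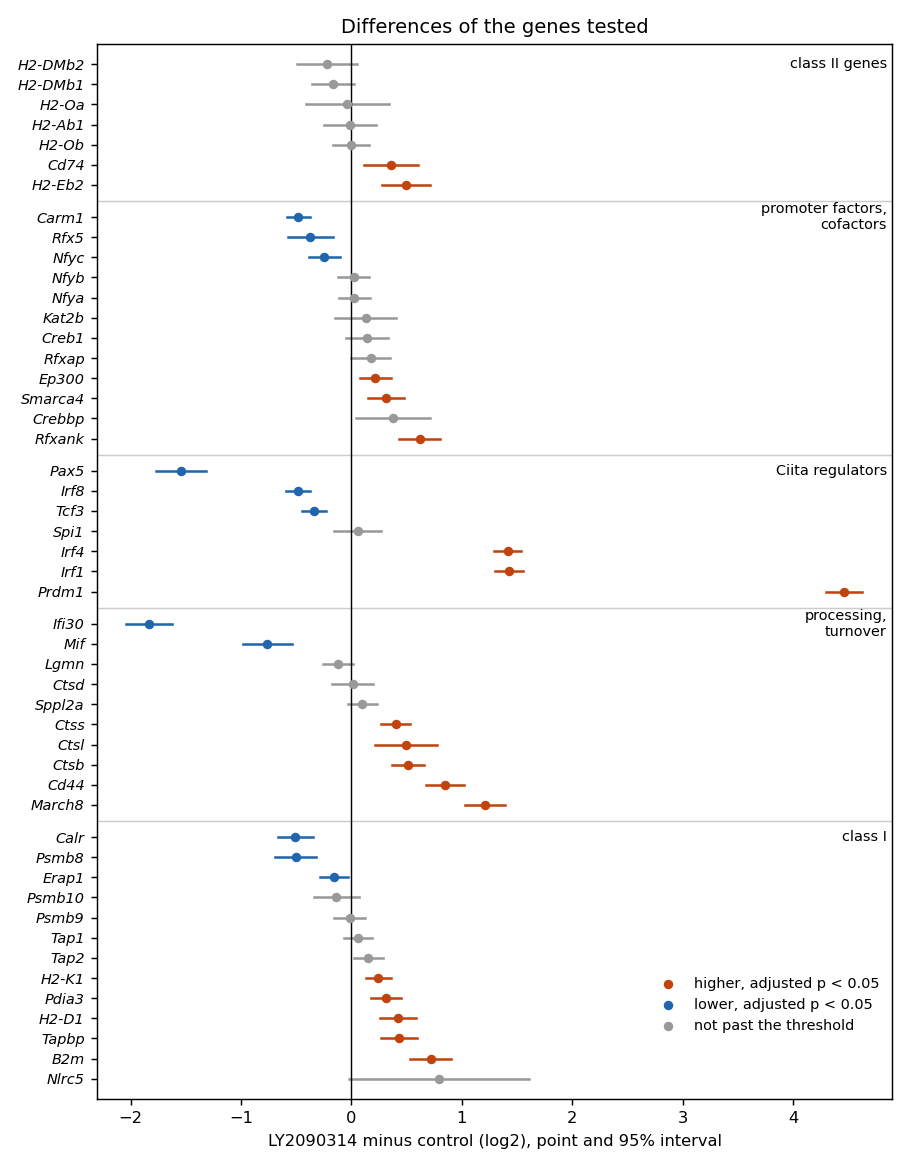
Log2 difference (LY2090314 minus control, horizontal axis) of tested genes by list, as a point with its 95% interval; orange and blue mark genes higher and lower at an adjusted p under 0.05 and gray marks the rest. The listed class II genes from H2-DMb2 to Cd74 lie between -0.22 and 0.36, and H2-Eb2, drawn with them, lies at 0.50. The regulators of Ciita reach from -1.54 (Pax5) to 4.46 (Prdm1).

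The labelled cell type was checked against its markers. All 9 B lymphoid markers were tested and none was near 0, but 8 were lower with LY2090314, among them Igll1, which fell by 1.42, Vpreb1, which fell by 1.27, and Cd22, which fell by 1.10 (limma), and Cd79a differed by 0.23 without passing. Their summed level, in log2, was 16.29 to 16.32 in controls and 15.67 to 15.81 with LY2090314. Of cells known to be rich in class II, monocyte and macrophage markers had a summed level of 6.13 to 6.31 in controls and 6.61 to 6.71 with LY2090314, with 2 of 8 tested, Lyz2 higher by 0.53 and Adgre1 listed at 0. Dendritic cell markers had 7.51 to 7.55 and 9.01 to 9.06, with only Ccr7 tested (higher by 1.53), a gene that B cells also express, and Clec9a and Cd209a listed at 0. T cell markers had 11.36 to 11.47 and 12.27 to 12.51, with only Lck tested (higher by 0.95) and Trbc2 listed at 0. The higher sums of these last 3 lists rest mostly on Lyz2, Ccr7 and Lck. The T cell markers Cd3d, Cd3e, Cd3g, Cd4 and Cd8a lay between -2.28 and -1.12 in all samples. The dendritic markers Itgax and Siglech lay between -1.97 and -1.95, and the monocyte markers Cd14 and Csf1r between -1.96 and 0.18. Markers below the limit for testing differed in both directions. Itgam was higher by 0.08 with LY2090314, and its groups did not overlap. Trac was higher by 0.08 and Csf1r by 0.07, with overlapping groups, and Xcr1 was lower by 0.06 without overlap. Cd68, the other tested monocyte marker, differed by 0.02 and did not pass. The sums therefore do not show these cell types to be more abundant, and a small change in their numbers was not tested.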

How the data were processed

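RNA-seq was made from polyadenylated RNA with a stranded library. Per the labels and the study's methods, the authors quantified transcripts with Salmon 1.4.0 and used DESeq2 1.30.1, with GRCm38 as the genome. The authors deposited 1 table of rlog values, which are log2 values after size-factor scaling and shrinkage. Samples and options that entered the transformation are not stated, and the strand setting is not given in the sources used here. Of 12 columns, 6 matched a group by name and 6 were not used. Without counts no count test was possible.

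Genes with a mean of at least 3 were fitted over the 6 samples with the R package limma (version 3.58.1, R 4.3.3), using eBayes with a mean-variance trend and Benjamini-Hochberg adjustment. The script was tested on simulated data. The members and the gene lists were chosen with earlier results of these data known. Named genes are all members and, per list, up to 4 genes past the threshold by size of difference plus those that bind class II promoters or control Ciita; 2 listed genes are counted but not reported here by name. Of 41444 identifiers, 41157 had a symbol, and positions are from GENCODE for GRCm38.

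Alternatives were no trend, no filter, a mean of at least 5, median centring, quantile normalization and leaving out each sample. Further ones were averaging columns whose names begin with the same number, an adjusted p under 0.01 and a log2 difference of at least 1.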

Additional observations from a re-analysis of the deposited data

How the results depend on the processing

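No paired analysis was possible because the names of the columns do not give the replicate numbers of the labels. Of all genes tested, 5778 passed, 4741 to 6225 with 1 sample left out and 693 with a log2 difference of at least 1. Centring on the median and quantile normalization moved the median of all differences from 0.01 to -0.01 and -0.04, and the share of higher calls from 49.5% to 45.7% and 43.4%.

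The count of class II genes past the threshold, 1 in the report, was 3 with quantile normalization, 0 with an adjusted p under 0.01 or a log2 difference of at least 1, and 0 to 1 with a sample left out. It was 0 without control 1 or control 2, and without treated sample 1 the gene counted was H2-DMb2 and not Cd74. With no filter on the mean, 9 members entered the fit and 1 passed, Cd74 at an adjusted p of 0.0499 by limma. Cd74 remained higher in every alternative run, by 0.27 to 0.43 with a sample left out, with limma adjusted p values of 0.0176 to 0.0840. The call was lost at an adjusted p under 0.01 (0.36) and without control 1 (0.37), control 2 (0.31) or treated sample 1 (0.37), where fewer samples were fitted. H2-DMb1 passed with quantile normalization (-0.26), and so did H2-DMb2 there (-0.33) and without treated sample 1 (-0.33), with -0.33 to -0.16 over the samples left out. The cause was not tested.

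Directions of genes that never passed turned in 9 cases. With treated samples 1 and 2 averaged, H2-Oa was 0.0516 and H2-Ob 0.0273. With a sample left out, H2-Ab1 ranged from -0.0821 (without control 3) to 0.0755 (without control 2), being above 0 also without treated sample 1. H2-Oa ranged from -0.21 (without treated sample 3) to 0.12 (without treated sample 1), being above 0 also without control 3. H2-Ob ranged from -0.0589 (without treated sample 3) to 0.0388 (without treated sample 2), being above 0 also without control 2 or treated sample 1.

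A log2 difference of at least 1 left 0 genes among other class II genes, promoter factors, class I genes, costimulatory ligands, monocyte markers, T cell markers and locus neighbours, 2 among processing genes and 4 among B lymphoid markers. Costimulatory ligands past the threshold, 1 of 3 tested, were 2 with no filter, 0 with a mean of at least 5 and 1 to 2 with a sample left out. Locus neighbours, 2 of 5 tested, were 1 without trend, with no filter, with either scaling, with averaging and at an adjusted p under 0.01, and 1 to 3 with a sample left out. Depth is unknown, and shrinkage limits what genes with low values, Ciita among them, can show.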

Other observations

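Costimulatory ligands, which accompany antigen presentation to T cells, were mostly low. Of 7, 3 reached the limit for testing and 1 of these passed, that is 33.3% against 50.1% of all genes tested. Tnfsf4, the ligand of OX40, rose by 0.56 with LY2090314 (limma adjusted p = 0.0024), while Icosl differed by 0.19 (adjusted p = 0.10) and Cd274, which encodes PD-L1, by less than 0.01 (adjusted p = 0.99). Cd40, Cd80, Cd86 and Pdcd1lg2 had means under 3.

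The genes whose profile over the 6 samples lay closest to that of Ciita, by root-mean-square distance after centring each on its own mean, were Tgfb3 (0.0222 on the log2 scale), Ffar1 (0.0260), Pcp4l1 (0.0273), Gm9958 (0.0293) and Lyn (0.0294), among 19564 genes compared. As many as 1051 genes lay within 0.1, and the values of Ciita spanned only 0.27, so the order rests on small differences.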
